A study of Leptinotarsa decemlineata with 6 samples.

Results

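Cytochrome P450 genes of the Colorado potato beetle (CPB, Leptinotarsa decemlineata) were described in 6 RNA-seq libraries labelled as head, olfactory cell and WT genotype, 3 from the non-treatment group and 3 from the antibiotic group. Adult CPBs of the antibiotic group had eaten potato leaves soaked in a mixture of tetracycline, penicillin, ofloxacin, ciprofloxacin and ampicillin for 3 days, and the non-treatment group had eaten leaves without antibiotics. The concentration given to the beetles of these libraries, their sex and the number of heads in a library are not stated in the sources used here. Expression was measured as TPM (a level corrected for transcript length and scaled to the same total in every library) for each gene of a transcriptome assembled with Trinity, and a gene is given here by its assembly identifier and by the protein it matched best. A gene entered when its best match in Swissprot was a cytochrome P450, with P450 reductases and the named ecdysone and farnesoate enzymes left out, and was then selected on its measured level, a mean over the 3 libraries of either group that reached 1 TPM. Of 236706 genes in the files, 168 met the annotation rule and 111 met both.

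Cytochrome P450s are haem enzymes that insert 1 oxygen atom into a substrate and draw their electrons from a reductase or, in mitochondria, from an adrenodoxin. Insects sort them into clans. The CYP3 clan (families 6 and 9) is best known for breaking down plant toxins and insecticides, often in gut, fat body and Malpighian tubules, and the CYP4 clan holds enzymes of fatty acid, hydrocarbon and odorant oxidation. The CYP2 and mitochondrial clans hold the enzymes of ecdysteroid hormone synthesis, among others. CPB is known for resistance to many insecticides and for feeding on a plant rich in glycoalkaloids, and its P450s have been studied chiefly for that reason.

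The names below are best matches, mostly to other insects, and are no proof of the same enzyme. Of the 111 genes, 110 matched an insect protein in Swissprot and 1 matched a CYP4V2 of an ape, while 75 had their best match in the NR database in CPB itself. The family was taken from NR where NR gave a number and otherwise from Swissprot. In all, 40 of the 111 genes lay in 17 assembly clusters with another kept P450 gene, so that near-identical copies or pieces of 1 gene may share reads among them. Of the 57 genes under the floor, 28 matched insects and 29 matched other organisms.

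The P450 genes of these libraries were mostly of families 9 (38 genes), 6 (32 genes), 4 (20 genes) and 412 (8 genes). By clan, 71 genes belonged to CYP3, 29 to CYP4, 8 to the mitochondrial clan and 3 to CYP2. Their mean level over the 6 libraries ran from 0.976 to 4979 TPM with a median of 21.9 TPM, and 11 genes reached 100 TPM while 34 stayed under 10 TPM. Nearest to the floor on the inside were TRINITY_DN51016_c1_g1 (best Swissprot match CYP9E2, higher group mean 1.02 TPM) and TRINITY_DN55623_c0_g1 (CYP6K1, 1.41 TPM), and nearest outside were TRINITY_DN55472_c0_g4 (CYP4D2, 0.91 TPM) and TRINITY_DN94640_c0_g1 (0.81 TPM). The last matched a mouse CYP3A11 and was above 0 in antibiotic replicate 1 alone.

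The libraries themselves differed in ways that touch these genes. Total estimated counts were 25397497 to 33613953 in the 5 libraries with counts of their own (median 31185289), and antibiotic replicate 1 had TPM only. The non-treatment libraries held 109698 to 111005 genes above 0 and the antibiotic libraries 93718 to 100622. Rhodopsin (TRINITY_DN52274_c7_g1), which catches light in photoreceptor cells and marks the eyes of a head, was at 0.592, 0.639 and 0.252 TPM in non-treatment replicates 1 to 3 and at 161, 212 and 138 TPM in antibiotic replicates 1 to 3. It is a single gene, and the 34 eye genes together summed to 125 to 141 TPM in the non-treatment group and 417 to 567 TPM in the antibiotic group. The summed TPM of 56 muscle genes was 7124 to 11212 against 27458 to 29510, that of 209 digestive genes 8806 to 24158 against 4772 to 7335, and that of 100 sperm and axoneme genes 503 to 1583 against 458 to 674. These gene sets were picked by keyword and include genes that other tissues also express. The tissue content of the libraries and the antibiotic treatment therefore cannot be told apart in this design, and in bulk RNA fewer cells of a type and less RNA per cell cannot be told apart either. Nothing in the labels says that libraries of a group came from separate collections of beetles, so p-values measure the spread between these libraries.

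P450 transcripts together made up 0.921% to 1.51% of all TPM. Their sum was 12985, 9209 and 10756 TPM in non-treatment replicates 1 to 3 and 10651, 15073 and 12069 TPM in antibiotic replicates 1 to 3, so that the groups overlapped. The composition did not overlap when all P450 genes were counted. The 4 CYP4G genes took 60.2%, 45.9% and 42.7% of P450 TPM in the non-treatment libraries, against 76.6%, 76.9% and 73.6% in the antibiotic libraries. CYP4G enzymes of other insects make the hydrocarbons that waterproof the cuticle. All other P450 genes together gave 5173, 4984 and 6167 TPM in the non-treatment group (5442 ± 635, SD, n = 3) and 2495, 3484 and 3191 TPM in the antibiotic group (3057 ± 508, SD, n = 3). Most of this difference lay in 2 genes of 1 assembly cluster, the CYP4H10 and CYP4CW1 matches described below. The remaining 105 genes summed to 2542, 3988 and 3982 TPM in the non-treatment group and to 2475, 3460 and 3156 TPM in the antibiotic group, and these ranges overlapped. The CYP4G shares above also have these 2 genes in their total. CYP4G itself summed to 7812 TPM in non-treatment replicate 1 and to 8878 TPM in antibiotic replicate 3. Without the 2 genes, its share was thus no lower in the former library than in the latter. These are sums over chosen genes and were not tested.

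**Figure D1:**
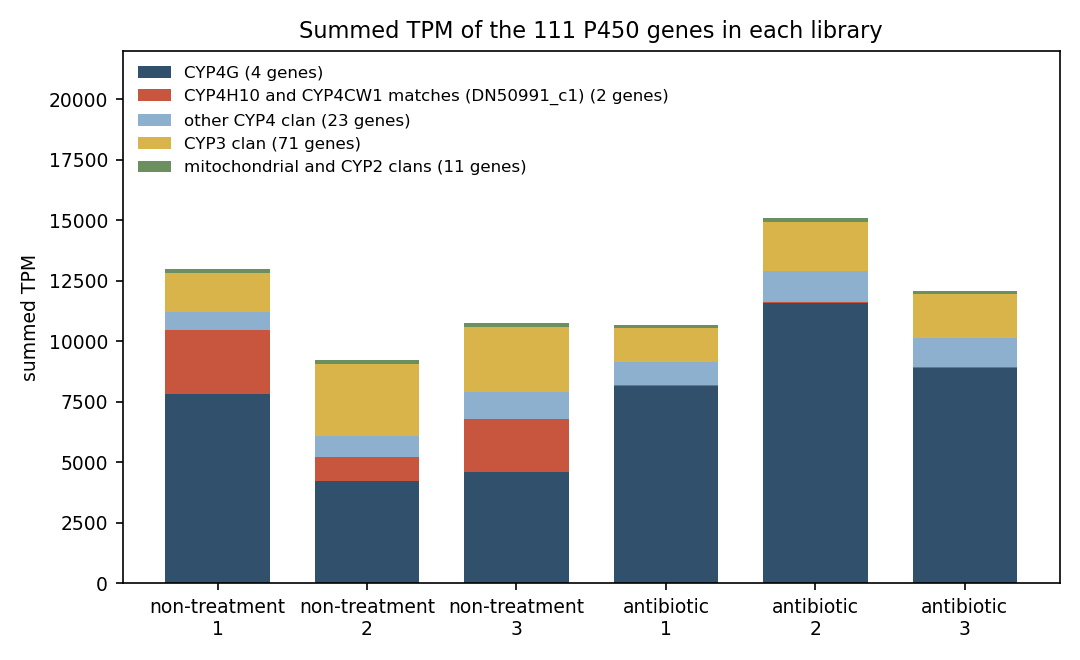
Summed TPM (vertical axis) of the 111 P450 genes in each of the 6 libraries (horizontal axis), stacked by gene set. The CYP4H10 and CYP4CW1 matches fill 2631, 997 and 2186 TPM in the non-treatment libraries but are hardly visible in the antibiotic libraries, where they sum to 20.5, 24.4 and 34.7 TPM.

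By clan, the CYP3 sum was 2415 ± 737 TPM in the non-treatment group and 1751 ± 305.7 TPM in the antibiotic group, and the CYP4 sum was 8401 ± 2605 and 10718 ± 1960 TPM (SD, n = 3 each). The mitochondrial clan gave 160 ± 17.8 and 118 ± 23.1 TPM and the CYP2 clan 7.52 ± 1.69 and 10.97 ± 2.67 TPM (SD, n = 3 each). The CYP3 and CYP4 means differed by less than the larger SD of their groups.

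Between the groups, 13 of the 111 P450 genes were called lower and 5 were called higher in the antibiotic group, by limma on log2(TPM + 1) fitted to all 33919 genes over the floor, at a Benjamini-Hochberg adjusted p under 0.05. Among all genes tested 7.26% were called lower and 2.88% higher, and among the P450 genes 11.7% and 4.5%. The floor enters these shares, because a gene that passed it in 1 group only had to be lower in the other. The 9 P450 genes kept through the non-treatment group alone held 5 of the 13 lower calls, and nothing is read from those 5 as a share. Of the 100 genes at 1 TPM or more in both groups, 8 were called lower and 5 higher (8% and 5%), where the background among such genes was 2.67% and 2.83%. The median log2 difference (antibiotic minus non-treatment) was −0.24 over the P450 genes and −0.09 over all genes tested. This order was not kept in limma without non-treatment replicate 3, where the medians were −0.093 and −0.12. They were −0.0058 and −0.06 in edgeR, and 0.02 and −0.48 in DESeq2. The all-gene medians of edgeR and DESeq2 were taken over 36428 and 185440 genes without the floor of 1 TPM. They are therefore not directly comparable with the medians of the 111 P450 genes. The antibiotic libraries lay below all non-treatment libraries for 26 of the 111 P450 genes and above them for 13, where 19.8% and 10.5% of all genes tested did so. Of those 26 genes, 8 were kept through the non-treatment group alone. Among the 100 genes at 1 TPM or more in both groups, the numbers were 18 and 13. The shares of 19.8% and 10.5% include genes that passed the floor in 1 group only. They are therefore no like background for the 18 and 13, and no such background was computed. After median-of-ratios scaling the calls were 12 lower and 8 higher, so that the lower share of the calls moved from 72.2% to 60.0%. The calls among all genes tested moved in the same direction, from 2464 lower and 976 higher to 2300 lower and 1316 higher.

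**Figure D2:**
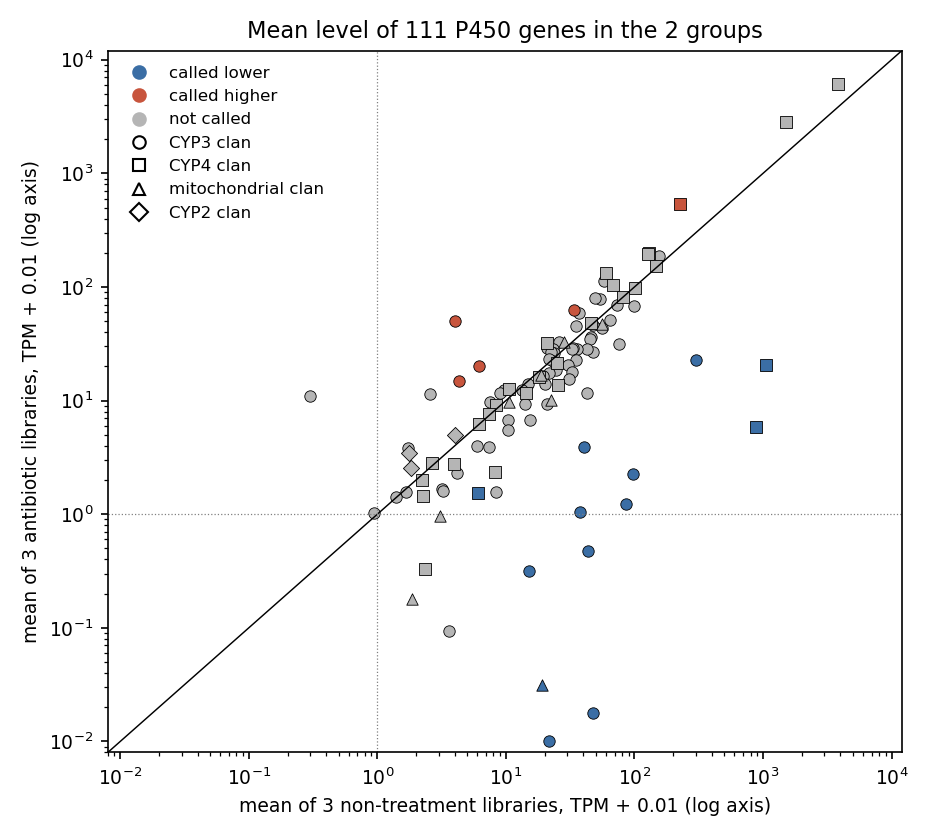
Mean TPM of each of the 111 P450 genes in the non-treatment libraries (horizontal) and the antibiotic libraries (vertical), on log axes after adding 0.01, with the floor of 1 TPM dotted and equality as a line. Most genes lie near the line, the 13 genes called lower (blue) reach down to a mean of 0 in the antibiotic group, and the 5 called higher (red) lie above the line.

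Most P450 genes did not pass the test. Of the 93 genes not called, 79 had a fitted difference within 1 on the log2 scale, 57 lay below 0 and 36 above. Over the 89 genes above 1 TPM in all 6 libraries, the highest library of a group was a median of 1.71 times the lowest in the non-treatment group and 1.79 times in the antibiotic group.

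CYP4G genes held the top of the P450 levels. The CYP4G1 match TRINITY_DN64442_c5_g2 (named for the Drosophila gene that works in the oenocytes, the hydrocarbon-making cells) was at 5543, 2906 and 2972 TPM in non-treatment replicates 1 to 3 and at 5476, 7042 and 5937 TPM in antibiotic replicates 1 to 3. The groups overlapped, because non-treatment replicate 1 lay above antibiotic replicate 1, and the difference of 0.75 ± 0.357 (log2, SE) was not called (limma adjusted p = 0.249). A CYP4G15 match in the same assembly cluster, TRINITY_DN64442_c5_g3, was at 1952, 1129 and 1430 TPM and then at 2119, 3949 and 2468 TPM. Every antibiotic library was above every non-treatment library, and the difference of 0.90 ± 0.346 was not called by limma (adjusted p = 0.16) or edgeR (adjusted p = 0.11) but was by DESeq2 (adjusted p = 0.0408).

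The CYP4G15 match of another cluster, TRINITY_DN65027_c0_g2, was at 313, 186 and 183 TPM in the non-treatment libraries, against 560, 594 and 470 TPM in the antibiotic libraries. It rose by 1.29 ± 0.271 (log2, SE; limma adjusted p = 0.0241), but the call was lost when any library other than non-treatment replicate 1 was left out, and in edgeR on the 5 libraries with counts (adjusted p = 0.0765). The CYP4G7 match TRINITY_DN65027_c0_g7 in its cluster stood at 2.03 to 4.24 TPM over the 6 libraries and was not called. The summed level of 63 cuticle genes was 174 to 229 TPM in the non-treatment group and 314.8 to 455 TPM in the antibiotic group, but of the 21 that passed the floor 5 were called lower and 3 higher, with a median difference of −0.41. Among all genes tested 7.26% were called lower and 2.88% higher. The part of cuticle tissue in the CYP4G levels was not tested.

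The 2 genes of 1 cluster in the CYP4 clan had the largest levels among those that fell. The CYP4H10 match TRINITY_DN50991_c1_g1 (a name from the flour beetle Tribolium castaneum) was at 1437, 673 and 1067 TPM in non-treatment replicates 1 to 3 and at 17.2, 20.8 and 24.1 TPM in antibiotic replicates 1 to 3. It fell by 5.56 ± 0.304 on the log2 scale (limma adjusted p = 9.02e-05), and its mean TPM was 51.2 times higher in the non-treatment group. The CYP4CW1 match TRINITY_DN50991_c1_g2, named from CPB itself, was at 1194, 324 and 1118 TPM and then at 3.35, 3.59 and 10.6 TPM. Its difference was −6.95 ± 0.58 (log2, SE; limma adjusted p = 0.000653). By mean level over the 6 libraries, these genes ranked directly behind the CYP4G1 match and the CYP4G15 match of its cluster. Both were called with each library left out in turn, by edgeR and by DESeq2.

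Both genes were lowest in non-treatment replicate 2 within their group and were above 0 in every antibiotic library. An aminopeptidase N gene, a digestive enzyme of the gut surface (TRINITY_DN55893_c3_g2), stood at 570, 669 and 999 TPM in the non-treatment libraries, against 4.16, 5.44 and 6.004 TPM in the antibiotic libraries. Of the 209 digestive genes, 118 passed the floor, of which 52 were called lower and 3 higher (7.26% and 2.88% of all genes tested were). Digestive genes that passed the floor through the non-treatment group alone had to be lower, and their number was not counted. The digestive genes summed to 8806, 24158 and 10098 TPM in non-treatment replicates 1 to 3, so that their sum was highest in replicate 2, where the P450 pair was lowest, and this aminopeptidase was lowest in replicate 1. The part of gut transcripts in the level of this P450 pair was not tested.

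Outside CYP4G and this pair, no gene of family 4 was called by limma. All 8 genes placed in CYP4C, which had that match in Swissprot and no family number in NR, were left uncalled. Their means were 6.19 to 164 TPM and their fitted differences −0.95 to 0.59. Other genes with a CYP4C match in Swissprot were placed elsewhere by NR. Of those, TRINITY_DN50991_c1_g1 and TRINITY_DN55729_c2_g1 were called lower and the rest were not called. The CYP4D2 match TRINITY_DN63628_c4_g1 was at 130, 155 and 156 TPM and at 113, 182 and 159 TPM, with a difference of 0.02 (limma adjusted p = 0.974). The CYP4BD4 match TRINITY_DN62629_c4_g1, picked out after its values were seen for its spread, was at 32.6, 22.1 and 126 TPM and at 214, 118 and 64.8 TPM, so that single libraries of both groups crossed.

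CYP412 is a small family in the CYP4 clan with 8 genes here, of which 1 was called lower (12.5%, against 7.26% of all genes tested). The CYP412A2 match TRINITY_DN55729_c2_g1 was at 7.12, 3.42 and 7.48 TPM and then at 1.18, 2.52 and 0.85 TPM (difference −1.48 ± 0.36, limma adjusted p = 0.0421). The call was lost without non-treatment replicate 1 or 3 or without antibiotic replicate 1 or 3. The best-expressed CYP412A2 match, TRINITY_DN56938_c3_g1, was at 110, 131 and 141 TPM and at 161, 216 and 208 TPM, with no overlap between the groups but no call (0.61, limma adjusted p = 0.125). Members of the family thus lay on both sides of 0, from −1.60 to 0.61 among those not called.

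Family 6 gave 4 genes called lower and 2 called higher of 32 (12.5% and 6.25%, against 7.26% and 2.88% of all genes tested). CYP6 enzymes of leaf beetles and other insects are the ones most often tied to the oxidation of insecticides and plant compounds, and CYP6BQ genes of Tribolium castaneum are known from pyrethroid resistance. Of the 6 CYP6BQ matches, 3 were called lower (7.26% of all genes tested were) and 5 had every antibiotic library below every non-treatment library (19.8% of all genes tested had). One of the 3, TRINITY_DN63336_c0_g6, passed the floor through the non-treatment group alone. It lies in 1 assembly cluster with TRINITY_DN63336_c0_g4, also called lower, and TRINITY_DN63336_c0_g1, not called. These 3 cluster mates may share reads or be pieces of 1 gene, so they may not be separate observations.

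The CYP6BQ15 match TRINITY_DN56554_c1_g1 was at 28.3, 138 and 89.1 TPM in non-treatment replicates 1 to 3 and at 0.133, 0.158 and 3.33 TPM in antibiotic replicates 1 to 3 (difference −5.33 ± 0.696, limma adjusted p = 0.00353). A second CYP6BQ15 match, TRINITY_DN63336_c0_g4, was at 18.4, 186 and 88.9 TPM and then at 0.132, 0 and 6.68 TPM (−5.06 ± 1.0, limma adjusted p = 0.0191). In both, non-treatment replicate 1 was the lowest of its group and antibiotic replicate 3 the highest of its group. Estimated counts in antibiotic replicates 2 and 3 were 5 and 103 for the first gene and 0 and 47 for the second. The CYP6BQ16 match TRINITY_DN63336_c0_g6 shared that order, at 10.4, 75.8 and 43.9 TPM and then 0.0475, 0 and 1.34 TPM (−4.66 ± 0.687, limma adjusted p = 0.00577).

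None of these 3 genes passed edgeR on 5 libraries (adjusted p = 0.0689, 0.146 and 0.0742 in the order given), while DESeq2 called the first and the last (adjusted p = 0.00284 and 0.0467). The call of TRINITY_DN63336_c0_g4 was also lost without non-treatment replicate 2 or 3 or without antibiotic replicate 1 or 2, and DESeq2 gave it an adjusted p of 0.223. The other CYP6BQ genes showed smaller differences. TRINITY_DN63336_c0_g1 was at 15.6, 81.0 and 31.6 TPM and at 8.86, 12.3 and 13.7 TPM without a call (limma adjusted p = 0.127). TRINITY_DN64807_c0_g1, also a CYP6BQ15 match, was at 20.3, 26.6 and 23.8 TPM and at 20.0, 26.0 and 33.2 TPM, with the groups overlapping (limma adjusted p = 0.767). Of the 4 CYP6BQ15 matches, 2 were thus called lower and 2 were not called.

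The CYP6K1 match TRINITY_DN60810_c6_g5, named from the German cockroach, was the best-expressed family 6 gene in the non-treatment group. It was at 57.6, 503 and 345 TPM and then at 18.2, 12.9 and 37.2 TPM (−3.32 ± 0.782, limma adjusted p = 0.0368). The groups did not overlap, yet the non-treatment libraries spread widely, and the call was lost on leaving out any library other than non-treatment replicate 1 and in edgeR (adjusted p = 0.0954). Of the 13 genes in the CYP6K group, 11 were not called. Among them TRINITY_DN60486_c0_g2, the family 6 gene with the highest mean over all libraries, was at 52.2, 220 and 196 TPM and at 83.6, 256 and 217 TPM. It was lowest in replicate 1 of each group, and the difference of 0.35 ± 0.625 was not called (limma adjusted p = 0.781).

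Among the 5 genes called higher, the largest fitted log2 difference was that of TRINITY_DN60355_c1_g2, matched to CYP6G2 of Drosophila in Swissprot and to a CYP6K1-like protein of Tribolium castaneum in NR. It was at 1.96, 5.87 and 4.11 TPM in the non-treatment libraries, against 41.1, 72.5 and 37.4 TPM in the antibiotic libraries. The groups lay far apart, with antibiotic replicate 3 the nearest to the non-treatment libraries. It rose by 3.39 ± 0.376 on the log2 scale (limma adjusted p = 0.002), and was called with each library left out, by edgeR (adjusted p = 0.0127) and by DESeq2 (adjusted p = 3.73e-14).

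The CYP6EE1 match TRINITY_DN60597_c5_g1 was at 25.7, 34.3 and 41.2 TPM and then at 59.2, 63.2 and 65.1 TPM (0.89 ± 0.218, limma adjusted p = 0.0421). The call was lost on leaving out any library other than non-treatment replicate 3, and neither edgeR (adjusted p = 0.0539) nor DESeq2 (adjusted p = 0.0523) made it. One CYP6K1 match, TRINITY_DN62920_c0_g4, was at 0.36, 0.449 and 0.0559 TPM and at 0.15, 0.409 and 32.5 TPM. It passed the floor through antibiotic replicate 3 alone and was singled out after its values were seen.

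**Figure D3:**
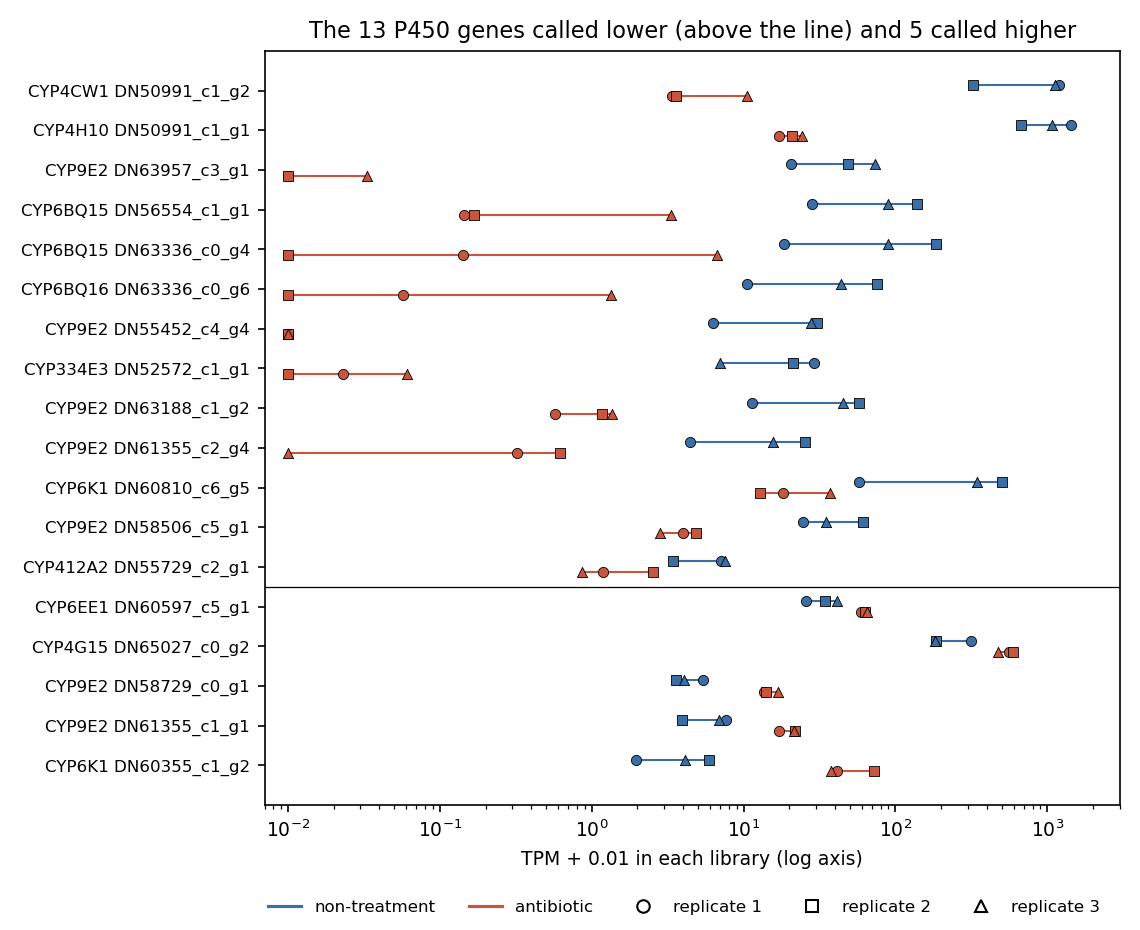
TPM of the 18 called P450 genes in each of the 6 libraries, on a log axis after adding 0.01, with a bar from the lowest to the highest library of each group and a marker shape for each replicate. The 13 genes called lower stand above the line and the 5 called higher below it, and in several of the lower genes non-treatment replicate 1 (circle) lies left of replicates 2 and 3, while for CYP334E3 replicate 3 (triangle) does.

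Family 9 was the largest, and all 38 of its genes had CYP9E2 of the German cockroach as their Swissprot match, with 2 of them placed in CYP9F and 2 in CYP9Z by their NR match. CYP9 enzymes sit beside CYP6 in the CYP3 clan and are likewise known from insecticide breakdown. Of the 38 genes 5 were called lower and 2 higher (13.2% and 5.26%, against 7.26% and 2.88% of all genes tested), and 3 of those 5 passed the floor through the non-treatment group alone and had to be lower. The family's median difference was −0.32.

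The CYP9E2 match TRINITY_DN63957_c3_g1 was at 20.6, 48.7 and 73.7 TPM in the non-treatment libraries, against 0, 0 and 0.0233 TPM in the antibiotic libraries. Estimated counts were 1854, 4461 and 7298 in the non-treatment libraries against 0 and 1 in antibiotic replicates 2 and 3. The fitted difference of −5.42 ± 0.425 (limma adjusted p = 0.000484) depends on the pseudocount, as for every gene at or near 0 in 1 group. TRINITY_DN55452_c4_g4 was at 6.26, 30.4 and 27.9 TPM and was listed at 0 in every antibiotic library, but it rested on only 13, 66 and 66 estimated reads in the non-treatment libraries (limma adjusted p = 0.00315, edgeR adjusted p = 0.0371).

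The other lower genes of the family had a TPM above 0 in at least 2 antibiotic libraries. TRINITY_DN58506_c5_g1 was at 24.5, 61.3 and 35.1 TPM and then at 3.95, 4.87 and 2.80 TPM (−3.01 ± 0.349, limma adjusted p = 0.0023). TRINITY_DN63188_c1_g2 was at 11.3, 57.7 and 44.9 TPM and then at 0.567, 1.17 and 1.36 TPM (−4.01 ± 0.555, limma adjusted p = 0.0045). TRINITY_DN61355_c2_g4 was at 4.45, 25.4 and 15.6 TPM and then at 0.311, 0.606 and 0 TPM (−3.38 ± 0.55, limma adjusted p = 0.00865, edgeR adjusted p = 0.0592). In all 3, non-treatment replicate 1 was the lowest of its group and replicate 2 the highest, the order also seen in the CYP6BQ genes.

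Cluster neighbours of these genes were not called. TRINITY_DN58506_c5_g4 was at 39.4, 50.1 and 49.3 TPM and at 25.2, 33.8 and 49.6 TPM (limma adjusted p = 0.433). TRINITY_DN63188_c1_g3 was at 24.7, 64.2 and 38.8 TPM and at 23.5, 39.0 and 23.3 TPM (limma adjusted p = 0.465). A gene that fell and one that did not pass the test thus stood in the same cluster in both cases. These neighbours were chosen after their values were seen.

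Both family 9 genes called higher matched CYP9E2 and had modest levels. TRINITY_DN58729_c0_g1 was at 5.38, 3.58 and 4.04 TPM and then at 13.7, 14.1 and 16.9 TPM (1.58 ± 0.216, limma adjusted p = 0.00428, edgeR adjusted p = 0.0163). TRINITY_DN61355_c1_g1 was at 7.67, 3.92 and 6.91 TPM and then at 17.1, 21.7 and 21.4 TPM (1.59 ± 0.265, limma adjusted p = 0.00958). The second rested on 37.6 to 191 estimated reads a library and was called neither by edgeR (adjusted p = 0.158) nor by DESeq2 (adjusted p = 0.113).

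The best-expressed genes of the family were not among those called. TRINITY_DN57707_c2_g3 was at 56.7, 37.8 and 79.9 TPM and at 95.9, 133 and 111 TPM, with every antibiotic library above every non-treatment library (1.0 ± 0.295, limma adjusted p = 0.0783). TRINITY_DN63533_c2_g1 was at 77.04, 91.6 and 128 TPM and at 37.4, 77.7 and 88.7 TPM, with overlap (−0.59 ± 0.358, limma adjusted p = 0.364). Leaving out non-treatment replicate 3, or median-of-ratios scaling, brought the first of them past the threshold. The 31 uncalled genes of family 9 had fitted differences of −1.68 to 1.90, and 26 of them were within 1 on the log2 scale.

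The mitochondrial clan had 8 genes, of which 1 was called lower (12.5%, against 7.26% of all genes tested). That gene passed the floor through the non-treatment group alone and had to be lower. The called gene, TRINITY_DN52572_c1_g1, matched CYP334E3 of CPB in NR and CYP301A1 of Drosophila in Swissprot. It was at 29.0, 20.99 and 6.96 TPM in the non-treatment libraries, against 0.0131, 0 and 0.0507 TPM in the antibiotic libraries (−4.09 ± 0.465, limma adjusted p = 0.00215). It was the 1 gene of the 13 lower ones with its lowest non-treatment value in replicate 3.

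The CYP12 genes, which in flies include enzymes tied to insecticide resistance, held most of the clan's level. The best-expressed one, the CYP12J4 match TRINITY_DN57482_c4_g1, was at 59.1, 50.8 and 58.2 TPM and at 44.2, 57.3 and 40.2 TPM, with a difference of −0.25 ± 0.203 (limma adjusted p = 0.495). The CYP12H2 match TRINITY_DN54809_c3_g1 was at 25.3, 15.8 and 25.8 TPM and at 5.04, 16.8 and 8.26 TPM, with antibiotic replicate 2 inside the non-treatment range (−1.19 ± 0.405, limma adjusted p = 0.118), and it was called lower when that library was left out (adjusted p = 0.0444). The CYP12C1 match TRINITY_DN52872_c4_g2 (0.22, limma adjusted p = 0.665) was closer to 0. So were the other CYP12H2 matches, TRINITY_DN50747_c2_g2 (−0.18, limma adjusted p = 0.741) and TRINITY_DN54809_c3_g2 (−0.18, limma adjusted p = 0.786).

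The CYP301B1 match TRINITY_DN52475_c6_g2 was at 1.91, 3.17 and 0.466 TPM and then at 0.199, 0.242 and 0.0623 TPM (limma adjusted p = 0.121), and the CYP49A1 match TRINITY_DN65008_c1_g1 at 4.48, 3.51 and 1.12 TPM and then 1.18, 0.976 and 0.708 TPM (limma adjusted p = 0.178). Non-treatment replicate 3 was the lowest of its group in both, as for CYP334E3. Both passed the floor through the non-treatment group alone, and both were called lower when non-treatment replicate 3 was left out. On 5 libraries DESeq2 called the CYP301B1 match (adjusted p = 0.014) and not the CYP49A1 match (adjusted p = 0.174), and edgeR called neither.

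Matches to P450s of hormone metabolism, and to CYP303A1 and CYP305A1, were near or under the floor in these libraries. CYP306A1, which hydroxylates an ecdysteroid precursor in insects, was matched by TRINITY_DN55128_c4_g1 at 3.84, 2.89 and 5.21 TPM and at 3.74, 5.67 and 5.57 TPM (0.28, limma adjusted p = 0.574). CYP18A1, which breaks down ecdysteroids, was matched by TRINITY_DN62099_c3_g1 at 2.04, 1.65 and 1.53 TPM and at 2.35, 3.10 and 4.85 TPM. Its groups did not overlap and limma did not call it (0.66 ± 0.273, adjusted p = 0.19), whereas edgeR and DESeq2 on 5 libraries did (adjusted p = 0.0278 and 0.0178). The CYP305A1 match TRINITY_DN55163_c6_g2 was at 0.95, 1.75 and 2.70 TPM and at 2.02, 2.64 and 2.95 TPM (0.38, limma adjusted p = 0.492). The matches to CYP302A1, CYP303A1, CYP307A1 and CYP315A1 stayed under the floor. The ecdysone 20-monooxygenase TRINITY_DN60661_c1_g1, left out by the annotation rule, was at 1.98, 1.45 and 3.44 TPM and at 0.557, 0.887 and 0.851 TPM (limma adjusted p = 0.119). A methyl farnesoate epoxidase match, TRINITY_DN51562_c0_g1, an enzyme of juvenile hormone synthesis also left out by the rule, was under the floor at 0.0327, 0.0106 and 0 TPM and at 0, 0.303 and 0.302 TPM. On the 5 libraries that leave out antibiotic replicate 1, edgeR (adjusted p = 0.0325) and DESeq2 (adjusted p = 0.0025) called it higher. Of the 3 genes of the CYP2 clan, limma called 0, with 1 higher at an unadjusted p under 0.05.

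The best-expressed partners of the P450s were not called. NADPH cytochrome P450 reductase (TRINITY_DN50880_c4_g1), which hands electrons to P450s of the endoplasmic reticulum, was at 276, 272 and 247 TPM and at 195, 244 and 232 TPM (−0.25 ± 0.194, limma adjusted p = 0.485). Cytochrome b5 (TRINITY_DN55468_c6_g1), a second donor, was at 212, 231 and 276 TPM and at 159, 229 and 208 TPM (−0.28 ± 0.225, limma adjusted p = 0.50). Adrenodoxin (TRINITY_DN51704_c4_g1), the donor in mitochondria, was at 32.5, 36.1 and 35.7 TPM and at 27.8, 40.7 and 33.3 TPM (−0.05, limma adjusted p = 0.911). Among 24 electron donor genes 11 passed the floor, with a median difference of −0.25. Limma called 1 of the 11 lower and 0 higher, where 7.26% and 2.88% of all genes tested were so called. At an unadjusted p under 0.05 limma gave 4 lower and 0 higher, and edgeR and DESeq2 each called 1 lower and 0 higher. The gene called lower, TRINITY_DN44974_c0_g1, matched a cytochrome b5 domain-containing protein and fell from 5.83, 4.69 and 0.882 TPM to 0, 0.038 and 0.0396 TPM (limma adjusted p = 0.0376). This gene passed the floor through the non-treatment group alone and had to be lower. Of 46 haem synthesis genes 11 passed the floor, and of 11 regulators of detoxification genes 3 did. Limma, edgeR and DESeq2 each called 0 genes of either set, and at an unadjusted p under 0.05 limma gave 0 haem genes and 1 regulator, and the median difference of the haem genes was −0.02 and that of the regulators 0.03.

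The 13 genes called lower did not share a single order of the libraries. Non-treatment replicate 1 was the lowest of its group in 9 of them and replicate 2 the highest in 8, and antibiotic replicate 3 was the highest of its group in 9. The ratio of the highest to the lowest non-treatment library among the 13 genes ran from 2.14 to 10.1. A cathepsin L1 gene, a digestive protease (TRINITY_DN57306_c4_g1), was at 145, 5628 and 584 TPM in the non-treatment libraries, against 0, 0.137 and 45.9 TPM in the antibiotic libraries. It was thus lowest in non-treatment replicate 1, highest in non-treatment replicate 2 and present in antibiotic replicate 3, the order of the 3 CYP6BQ genes called lower. The 209 digestive genes together summed to 8806, 24158 and 10098 TPM and then to 4772, 7335 and 6157 TPM. Their sum shared the non-treatment order but was highest in antibiotic replicate 2. A protamine gene of sperm chromatin (TRINITY_DN62402_c0_g1) was at 516, 408 and 81.8 TPM and then at 0 in all antibiotic libraries, with replicate 1 the highest and replicate 3 the lowest of the non-treatment group, as for CYP334E3. Of the 100 sperm and axoneme genes, 47 passed the floor, of which 34 were called lower and 2 higher (7.26% and 2.88% of all genes tested were). Their sum was 1583, 1242 and 503 TPM and then 458, 501 and 674 TPM. It thus shared the non-treatment order of protamine but not its absence from the antibiotic group. How many digestive or sperm genes passed the floor through the non-treatment group alone, and so had to be lower, was not counted. The cathepsin L1 and protamine genes were set beside the P450 genes after their values were seen. The part of gut or testis transcripts in the P450 differences was not tested.

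**Figure D4:**
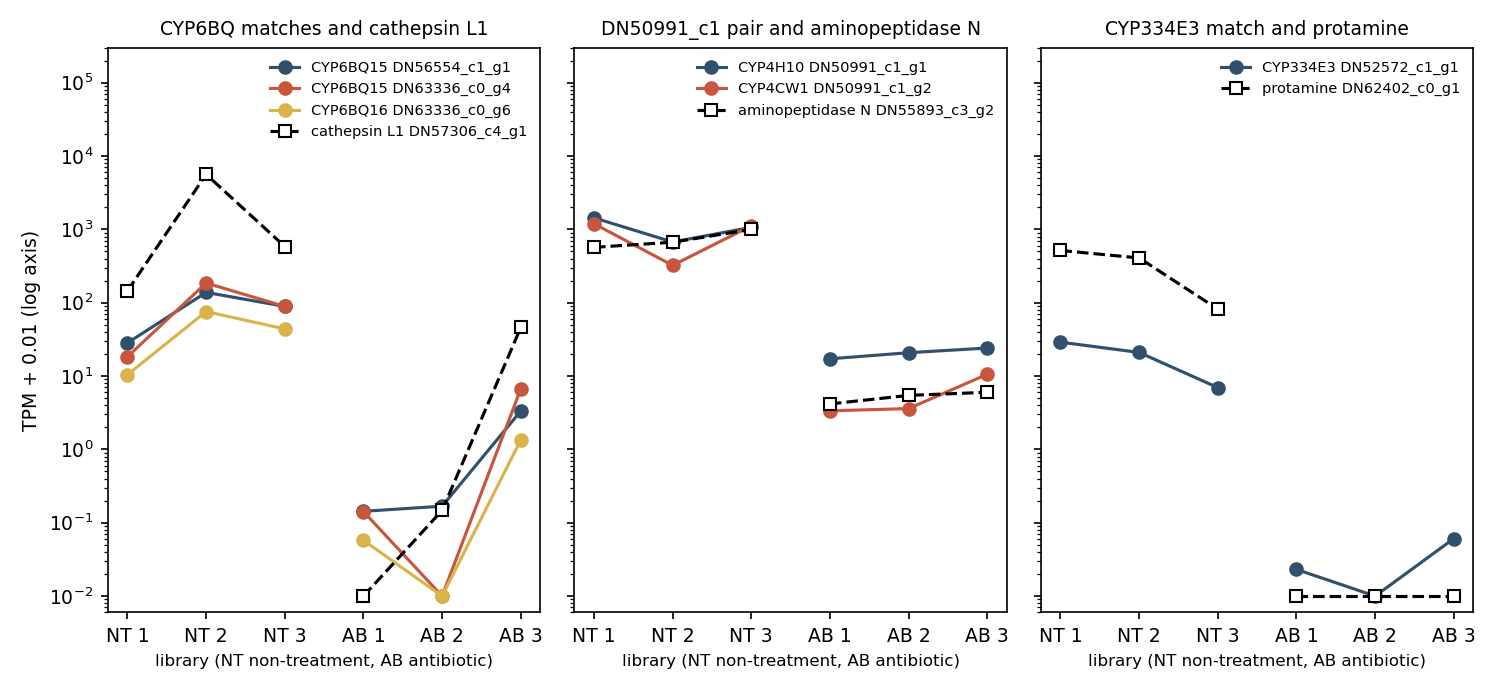
TPM after adding 0.01 (vertical, log axis) in the 6 libraries (horizontal; lines only join libraries of 1 group) of 3 CYP6BQ matches beside cathepsin L1, of the CYP4H10 and CYP4CW1 matches beside aminopeptidase N, and of the CYP334E3 match beside protamine. Cathepsin L1 and the CYP6BQ matches peak in non-treatment replicate 2 and reappear in antibiotic replicate 3, where cathepsin L1 is at 45.9 TPM, whereas CYP334E3 and protamine are lowest of the non-treatment group in replicate 3. Each marker gene was picked from its set after its values were seen.

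Genes of the fat body, where insects also express many P450s, summed to 969 to 1569 TPM in the non-treatment group and 1225 to 1664 TPM in the antibiotic group, and 0 of the 7 that passed the floor were called by limma (0 at an unadjusted p under 0.05, 0 by edgeR and 0 by DESeq2). Antennal genes (odorant receptors and odorant-binding proteins) summed to 256 to 305.5 and 440 to 542 TPM, eye genes to 125 to 141 and 417 to 567 TPM, and nervous system genes to 407 to 469 and 332 to 450 TPM. Of the 16 antennal genes that passed the floor, limma called 1 lower and 4 higher. Of the 22 such eye genes it called 2 lower and 6 higher, with a median log2 difference of 0.19. Of the 15 such nervous system genes it called 2 lower and 3 higher. Of the 56 muscle genes, 31 passed the floor, of which limma called 0 lower and 18 higher. Among all genes tested, 7.26% were called lower and 2.88% higher. Malpighian tubule markers were not examined.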

How the data were processed

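RNA of 6 libraries (3 non-treatment, 3 antibiotic) was sequenced and quantified by the authors. The deposited files give, per Trinity gene, TPM and estimated counts from the authors' quantification, with Swissprot and NR best matches. The submitters' notes name FastQC, Salmon, DESeq2 and mm10 (a mouse build) without roles, and no version is given in the sources used here. TPM of all 6 libraries was used. Estimated counts, rounded, were used for 5, since those of antibiotic replicate 1 were not analysed here, and 2 columns of per-sample values that belong to other samples were not used. Total counts of 25397497 to 33613953 set the depth of those 5 libraries.

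Genes with a mean of at least 1 TPM in a group were tested on log2(TPM + 1) with limma 3.58.1 (R 4.3.3, mean-variance trend), antibiotic minus non-treatment, with Benjamini-Hochberg adjustment over all 33919 genes and a threshold of 0.05. Sums and gene sets were described without a test. The exact permutation test of 3 against 3 libraries cannot go below p = 0.1 and was not used. Alternatives were edgeR 4.0.16 and DESeq2 1.42.0 on 5 libraries, other scalings, floors, pseudocounts and call rules, the replicate number as a block, and leaving out each library. The main limma fit and the edgeR and DESeq2 fits on 5 libraries were run on simulated data, and the other alternatives were not. The members and gene sets (electron donors, haem synthesis, hormone P450s, detoxification regulators, and markers of gut, fat body, sperm, eye, nervous system, muscle, cuticle and antenna) were chosen by annotation with earlier results of these data known. Named were the 4 best-expressed genes of each clan, up to 5 called genes with the largest difference in each direction, the best-expressed gene of conserved families, the genes nearest the floor and the main electron donors. All other genes were named after their values were seen. Figures were drawn with Matplotlib 3.10.9.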

Additional observations from a re-analysis of the deposited data

How the results depend on the processing

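The numbers of P450 genes called lower (13) and higher (5), and of all genes called (3440), were recomputed under 19 alternatives. Lower calls moved by over 1.5 times only with edgeR without a filter on counts, to 22, with 13 higher calls and 6807 genes in all. Higher calls were 8 after median-of-ratios scaling, and 3 without a floor on TPM (2138 genes in all), in edgeR on 5 libraries and in edgeR with DESeq2 size factors. Leaving out 1 library at a time gave 10 to 15 lower and 3 to 5 higher P450 genes (3 higher without non-treatment replicate 2 or any antibiotic replicate) and 1765 to 3867 genes in all. Of the calls, 10 of 13 lower and 3 of 5 higher held with every library left out. The difference of TRINITY_DN60486_c0_g2 ran from −0.31 to 0.84 with 1 library left out (negative without non-treatment replicate 1), and that of TRINITY_DN50747_c2_g2 from −0.40 to 0.074 (positive without antibiotic replicate 1). Neither was called. The replicate block gave 12 lower and 5 higher P450 genes, 16 of these 17 shared with the unblocked fit, and 2615 genes in all. Deviations of same-numbered libraries correlated at 0.13, −0.09 and 0.10, and those of differently numbered libraries at −0.17 to 0.08. With 3 libraries in a group, these values cannot decide whether libraries of the same number were paired. The cause of each change was not tested. Counts of antibiotic replicate 1 were not analysed, and genes with few reads, such as TRINITY_DN55452_c4_g4 at 13 to 66 estimated reads, are limited by depth.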
